A study of Mus musculus with 9 samples.

Results

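Scavenger receptors are cell surface proteins with which monocytes and macrophages bind and take up modified lipoproteins, dying cells, microbes and other ligands. The genes followed here were taken by symbol from the array annotation and are Msr1, Marco, Cd36, Scarb1, Cd163 and Mrc1, that is 6 of the 19938 genes tested. Msr1 and Marco are class A receptors with a collagen-like stalk, Cd36 and Scarb1 are class B receptors of lipids and lipoproteins, Cd163 takes up haemoglobin bound to haptoglobin, and Mrc1 is the macrophage mannose receptor, a lectin for mannose-ended glycoproteins. Their expression was compared between blood monocytes of wild type, Ccl2-/- and Ccr2-/- mice, which lack the chemokine CCL2 or its receptor CCR2, to learn how losing either member of this chemokine pair alters circulating monocytes.

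Mice of all 3 genotypes were Balb/c, free of tumors and adult, aged 14 to 18 weeks. Each knockout is a germline deletion that every cell carries, and the sources name no further allele or agent that distinguished the groups. Whether DNA beside the deleted genes differed between the groups is not stated. Each genotype had 3 arrays, and each array carried RNA of monocytes pooled from 5 mice, so that the spread between arrays is one between pools, not between mice. Monocytes were obtained on magnetic columns, by removing cells that bore CD4, CD8, B220, Ly-6G, MHC II or CCR3 and then retaining cells that bore CD11b.

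The array values are linear intensities from dChip, a program that models the signal of the probes of each transcript cluster. In the library check, Ccr2 fell to 0.0797-fold in Ccr2-/- monocytes (limma adjusted p = 4.33e-06), and Ccl2 read 1.39-fold of wild type in Ccl2-/- monocytes (adjusted p = 0.326). Its value checks nothing, since the sources do not say whether the probes lie in the deleted part. Ccl2-/- replicate 1 stood apart, with a median intensity of 430.8 against 324.1 to 355.1 in the other arrays, and its mean correlation with the arrays of its own genotype was 0.972 against 0.981 to 0.994 elsewhere. Values of the 6 genes without this array are therefore given beside their Ccl2-/- results. The markers of monocytes were bright in every group, with a summed intensity of 7 genes of 48040 to 50510 in wild type, 45460 to 49730 in Ccl2-/- and 38450 to 41740 in Ccr2-/- arrays. NK cell markers were bright as well, with sums of 39110 to 42610, 47710 to 56220 and 62410 to 63290 for 8 genes. The study defines its monocytes as negative for the NK cell marker NK1.1, while the antibodies it lists for the columns include none against NK1.1. In such bulk samples, fewer cells of a type and less RNA per cell cannot be told apart.

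Each of the 6 genes was read by 1 transcript cluster. On GRCm38.p6 the genes lie at chr8:39543232-39642750 (Msr1), chr1:120474538-120505024 (Marco), chr5:17781690-17888959 (Cd36), chr5:125277087-125341094 (Scarb1), chr6:124304636-124330529 (Cd163) and chr2:14229414-14332023 (Mrc1). These positions are those of RefSeq, and the build behind the array annotation is not named. The clusters of Msr1, Cd36 and Scarb1 were above the upper quartile of all clusters on each of the 9 arrays. Mrc1 lay below the median of all clusters on 6 arrays and Marco on 5, and Cd163 was below the lower quartile on all 9. The values carry no detection call, so how much of the Cd163 signal is above background was not tested, and brightness does not compare amounts between genes.

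Mrc1 is the one of the 3 lower genes for which RefSeq promoter sequence was at hand, and Marco, whose expression did not pass the test in any comparison, is shown beside it. The 250 bases upstream of the start of each gene are written 5' to 3' on the gene's strand (GRCm38.p6, chr2:14229164-14229413, plus strand, for Mrc1 and chr1:120505025-120505274, minus strand, for Marco), and the capitals mark GAGGAA or TTCCTC, the core that the myeloid transcription factor PU.1 binds, on either strand.
Mrc1: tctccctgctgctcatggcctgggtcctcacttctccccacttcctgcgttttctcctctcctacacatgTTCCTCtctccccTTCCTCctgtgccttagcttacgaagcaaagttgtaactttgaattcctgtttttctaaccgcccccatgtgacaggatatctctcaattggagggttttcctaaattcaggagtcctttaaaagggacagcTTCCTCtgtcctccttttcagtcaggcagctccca
Marco: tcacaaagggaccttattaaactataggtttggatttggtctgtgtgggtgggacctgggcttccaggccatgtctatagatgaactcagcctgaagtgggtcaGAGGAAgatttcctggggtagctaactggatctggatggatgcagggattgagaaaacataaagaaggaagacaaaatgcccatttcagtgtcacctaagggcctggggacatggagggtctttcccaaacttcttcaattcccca
The core occurred 3 times upstream of Mrc1 and once upstream of Marco, and 23.25% of 32851 upstream sequences of this length held it. Of the 4 members in the promoter table, Cd36 and Cd163 had no match of the core in their windows. Sites for AP-1, C/EBP, STAT6, PU.1 with IRF and KLF factors and the TATA box were searched as well. Their only match in the windows of the 4 members was 1 KLF box (CACCC) upstream of Marco. Of all upstream sequences, 52.01% held a KLF box. These are matches of letters, not measured binding sites, and Spi1, the gene for PU.1, is described with the regulators.

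In Ccr2-/- monocytes, 3 of the 6 genes fell compared to wild type: Msr1 to 0.55-fold, Mrc1 to 0.546-fold and Scarb1 to 0.649-fold. None of the 6 rose, and Cd36, Marco and Cd163 did not pass the test. In Ccl2-/- monocytes none of the 6 passed. Genotypes were tested with limma on the log2 intensities of all 9 arrays, Benjamini-Hochberg adjusted over every gene. Past an adjusted p of 0.05 this called 8.38% of genes lower and 4.91% higher in Ccr2-/- monocytes (13.3% in all), against 0.16% in Ccl2-/- monocytes. With quantile normalization the 36.9% of calls that were higher in Ccr2-/- monocytes became 48.9%. For 4 of the 6 genes (Cd163 besides these 3) every Ccr2-/- array was below every wild type array, as it was for 18.1% of genes, and 33.9% lay apart in either direction.

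**Figure D1:**
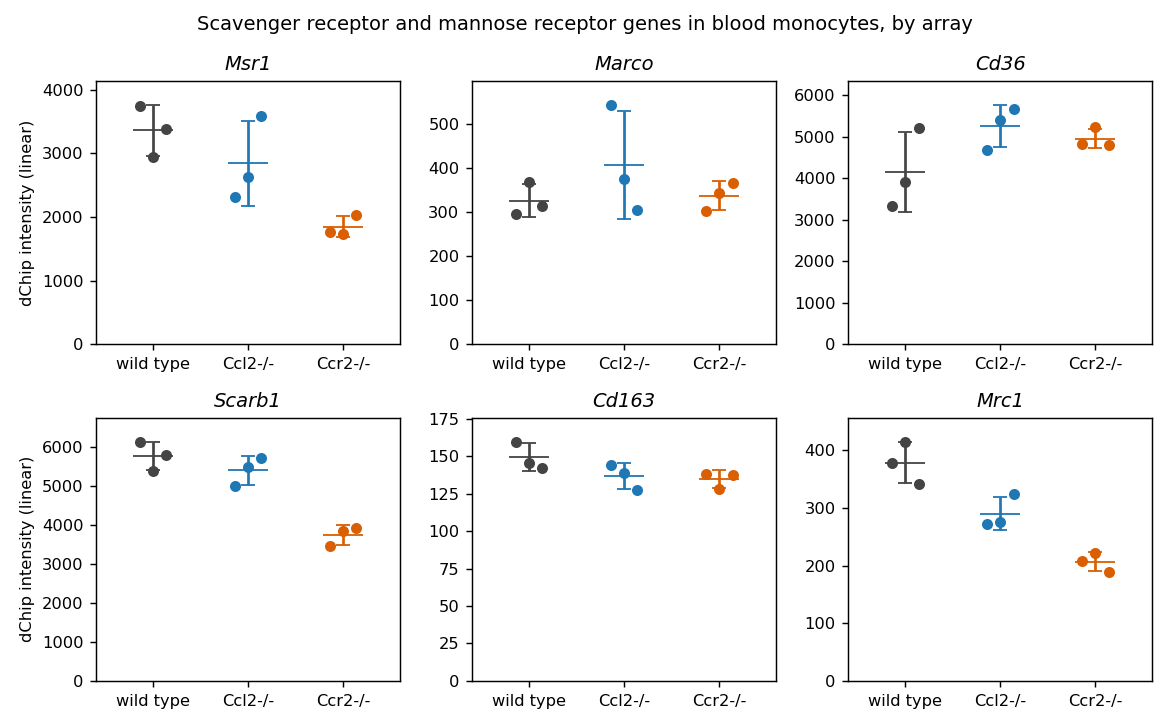
Linear dChip intensity (vertical axes, from 0) of the 6 genes on the 9 arrays, with 1 point per array and the mean and SD of 3 arrays per genotype. For Msr1, Scarb1 and Mrc1 every Ccr2-/- array lies below every wild type array, and for Cd36 and Marco the genotypes overlap.

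Msr1, the class A receptor known for the uptake of modified low density lipoprotein, read 3748, 2949 and 3381 in the wild type arrays, 2306, 2633 and 3584 in the Ccl2-/- arrays and 1766, 1732 and 2033 in the Ccr2-/- arrays. All Ccr2-/- arrays were below all others, and the Ccl2-/- arrays spread across the wild type range and below it. Mean log2 intensities were 11.71 ± 0.17 (SD of 3 arrays) for wild type, 11.45 ± 0.33 for Ccl2-/- and 10.84 ± 0.13 for Ccr2-/- monocytes. The log2 change of Ccr2-/- over wild type was -0.86 (standard error 0.16, limma adjusted p = 0.00914). Ccl2-/- monocytes, next in the order of levels, were at 0.835-fold of wild type (95% interval 0.643 to 1.08, adjusted p = 0.493), and the log2 change was -0.12 without Ccl2-/- replicate 1. Ccr2-/- monocytes were at 0.659-fold of Ccl2-/- monocytes (adjusted p = 0.0928), which passed without Ccl2-/- replicate 1 (log2 change -0.74, adjusted p = 0.0281).

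Marco, the other class A receptor, binds bacteria and inhaled particles and is best known from macrophages of the splenic marginal zone and the lung. It read 297, 370 and 313 in wild type, 544, 376 and 305 in Ccl2-/- and 302, 344 and 368 in Ccr2-/- arrays. The single high value was that of Ccl2-/- replicate 1, and otherwise the 3 genotypes overlapped. Marco was at 1.22-fold of wild type in Ccl2-/- monocytes (95% interval 0.892 to 1.67, limma adjusted p = 0.515), where the log2 change of 0.29 became 0.06 without that array. In Ccr2-/- monocytes it was at 1.04-fold (0.758 to 1.42, adjusted p = 0.954). A fall in intensity as large as that of Msr1 or Mrc1 lies outside this interval. Marco was below the median of all clusters on 5 arrays, and how much of its signal is above background was not tested. The interval therefore does not settle how far its transcript changed.

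Cd36, a receptor of oxidised lipoproteins, long-chain fatty acids and thrombospondin, did not pass the test in any comparison. Its intensities were 3327, 3909 and 5208 in wild type, 4694, 5409 and 5681 in Ccl2-/- and 4839, 5234 and 4806 in Ccr2-/- arrays. Wild type replicate 3 lay among the knockout arrays, and the other wild type arrays lay below all of them. Cd36 was at 1.29-fold of wild type in Ccl2-/- monocytes (95% interval 1.01 to 1.64, limma adjusted p = 0.369, log2 change 0.36, and 0.44 without Ccl2-/- replicate 1) and at 1.22-fold in Ccr2-/- monocytes (0.952 to 1.55, adjusted p = 0.353). Without wild type replicate 3 the latter passed, with a log2 change of 0.46 and an adjusted p of 0.0484, so 1 array decided this call. The Ccr2-/- level was 0.945-fold of the Ccl2-/- level (0.74 to 1.21, adjusted p = 0.802), a log2 change of -0.08 that was -0.16 without Ccl2-/- replicate 1. Platelets also carry CD36, and none of 6 platelet markers passed in any comparison (1 at an unadjusted p under 0.05 in each comparison that includes Ccr2-/- monocytes), with a summed intensity of 1964 to 2535 in wild type, 1987 to 2779 in Ccl2-/- and 2320 to 2618 in Ccr2-/- arrays.

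Scarb1, which encodes SR-BI, the receptor for cholesterol exchange with high density lipoprotein, had the tightest replicates of the 3 genes that fell. It read 6115, 5380 and 5775 in wild type, 4989, 5464 and 5708 in Ccl2-/- and 3443, 3845 and 3922 in Ccr2-/- arrays. The wild type and Ccl2-/- arrays were intermixed and the Ccr2-/- arrays were below all of them. The log2 means were 12.49 ± 0.09 (SD, n = 3 arrays), 12.39 ± 0.10 and 11.87 ± 0.10, and the log2 change of Ccr2-/- over wild type was -0.62 (standard error 0.09, limma adjusted p = 0.00202). Ccl2-/- monocytes were at 0.936-fold of wild type (95% interval 0.816 to 1.07, adjusted p = 0.587), a log2 change of -0.10 that was -0.04 without Ccl2-/- replicate 1. Ccr2-/- monocytes were below Ccl2-/- monocytes too, at 0.694-fold (adjusted p = 0.0211, and 0.0124 without that array).

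Cd163 read 160, 146 and 142 in wild type, 144, 139 and 127 in Ccl2-/- and 138, 128 and 138 in Ccr2-/- arrays. All 9 values lay in a narrow and dim range. Although the Ccr2-/- arrays were all below the wild type arrays, the level was 0.903-fold (95% interval 0.798 to 1.02, limma adjusted p = 0.331), and in Ccl2-/- monocytes it was 0.916-fold (0.81 to 1.04, adjusted p = 0.489), a log2 change of -0.13 that was -0.17 without Ccl2-/- replicate 1.

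Mrc1 was highest in wild type, then Ccl2-/-, then Ccr2-/- arrays. Its intensities were 379, 415 and 343 in wild type, 272, 275 and 324 in Ccl2-/- and 208, 222 and 190 in Ccr2-/- arrays. The 3 genotypes did not overlap with one another. Mrc1 was below the median of all clusters on 6 arrays, and how much of its signal is above background was not tested. Against wild type the log2 change was -0.87 in Ccr2-/- monocytes (standard error 0.11, limma adjusted p = 0.0012) and -0.38 in Ccl2-/- monocytes (standard error 0.11, adjusted p = 0.185; -0.34 without Ccl2-/- replicate 1). The Ccl2-/- difference thus did not pass over all genes, although its arrays lay below wild type as they did for 9.31% of genes, and apart in either direction for 18.7%. Between the knockouts, Ccr2-/- monocytes were at 0.713-fold of Ccl2-/- monocytes (adjusted p = 0.0451, and 0.0318 without that array).

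**Figure D2:**
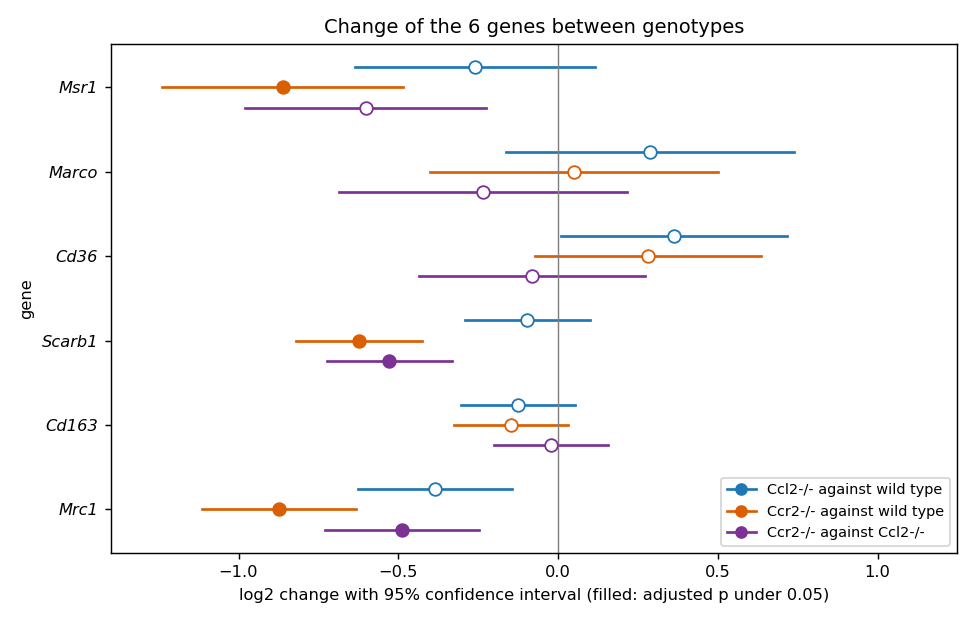
Log2 change (horizontal axis) of the 6 genes in the 3 comparisons, with limma's 95% confidence interval and filled circles at an adjusted p under 0.05. The filled circles are Msr1, Scarb1 and Mrc1 in Ccr2-/- against wild type and Scarb1 and Mrc1 in Ccr2-/- against Ccl2-/- monocytes, all on the lower side.

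In Ccl2-/- monocytes 2 of the 6 genes had an unadjusted p under 0.05, Cd36 on the higher and Mrc1 on the lower side, against 13.1% of all genes. The study itself selected genes by size, with group means that differed by over 100 and by over 1.2 times. Past these limits were Cd36 (higher) in Ccl2-/- monocytes, where 11.6% of genes were, Msr1, Scarb1 and Mrc1 (lower) in Ccr2-/- monocytes, where 15.8% were, and Msr1 and Scarb1 (lower) between the knockouts, where 12.6% were. Over all genes, Ccl2-/- monocytes had a median log2 change of 0.08 from wild type, which became -0.03 with each array centred on its median, and their values are to be read against that shift. Centring left Mrc1, Msr1, Scarb1 and Cd163 below and Cd36 and Marco above wild type in Ccl2-/- monocytes.

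Compared directly, Ccr2-/- monocytes were lower than Ccl2-/- monocytes in Scarb1 and Mrc1, 2 of the 6 genes, where 2.87% of all genes were lower and 3.6% differed. The groups lay apart for Scarb1, Mrc1 and Msr1, 3 of the 6, all lower, as they did for 16% of genes in that direction and 23.6% in either. For the calls of the 6 genes, this comparison moved more with the settings than those with wild type. The share of calls that were higher was 20.3%, 44% with quantile normalization and 71.6% with centring, and with centring neither Mrc1 (adjusted p = 0.236) nor Scarb1 (0.207) passed. Scarb1 also lost its call without Ccl2-/- replicates 2 or 3 or Ccr2-/- replicates 1 or 2 (adjusted p 0.06 to 0.0967), and Mrc1 without any array other than Ccl2-/- replicate 1 (0.0667 to 0.168). The 2 comparisons with wild type share the wild type arrays.

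**Figure D3:**
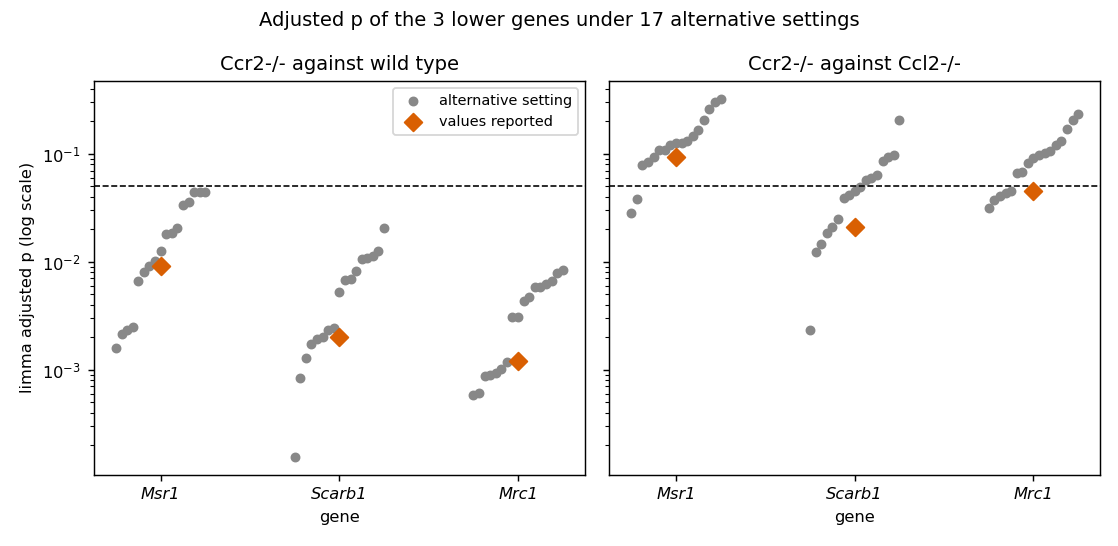
Limma adjusted p (vertical axis, log scale) of Msr1, Scarb1 and Mrc1 for Ccr2-/- monocytes against wild type (left) and against Ccl2-/- monocytes (right), as reported (diamonds) and under 17 alternative settings (circles), with the 0.05 threshold dashed. On the left every circle is under the line, with a highest value of 0.0447 for Msr1, and on the right the circles lie on both sides of it.

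The genes fell beside markers of the cell types in these fractions. For the marker counts that follow, 8.38% of all genes fell and 4.91% rose in Ccr2-/- monocytes. All 6 measured markers of Ly-6Chi monocytes, the inflammatory subset, fell in Ccr2-/- monocytes, with a summed intensity of 23640 to 31710 in wild type, 16720 to 20070 in Ccl2-/- and 6241 to 7281 in Ccr2-/- arrays. Without Ccr2 itself the sums of the other 5 were 15530 to 21890, 10220 to 12250 and 5560 to 6574. Of 7 markers of monocytes and macrophages in general 5 fell in Ccr2-/- monocytes, with a list median log2 change of -0.37. Among them were Cd14 (0.386-fold) and Adgre1, an adhesion receptor of macrophages (0.571-fold). Itgam, the gene for the CD11b by which cells were retained, was at 1.03-fold (limma adjusted p = 0.867). Lyz2 was at 0.908-fold (adjusted p = 0.211). Of 8 markers of Ly-6Clo monocytes, the patrolling subset, 2 rose, Cd9 and Spn, and all 8 NK cell markers rose, with a median log2 change of 0.76. The part of these shifts in the lower values of Msr1, Scarb1 and Mrc1 was not tested.

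Among 8 markers of tissue macrophages 1 fell in Ccr2-/- monocytes, the sialoadhesin gene Siglec1 (0.598-fold, limma adjusted p = 0.00682), and the list's median log2 change was 0.07. Of the remaining lists, Ccr3 of 5 eosinophil markers and Pecam1 of 5 endothelial markers rose, and Flt3 and Cd209a of 6 dendritic cell markers fell. The other markers of these lists did not pass, and the list medians were log2 changes of 0.04, 0.06 and 0.04. None passed among 7 neutrophil, 4 basophil and mast cell, 4 B cell, 5 T cell and 3 erythroid markers, 2 of which had an unadjusted p under 0.05. In Ccl2-/- monocytes Cd9 was the one marker that passed as higher and Flt3 the one that passed as lower (0.604-fold, adjusted p = 0.0254). More markers had an unadjusted limma p under 0.05 there, as 13.1% of all genes had. On the lower side were all 6 Ly-6Chi markers (median log2 change -0.76) and all 4 basophil and mast cell markers (-0.75). So were 3 of 4 B cell markers (list median -0.47). On the higher side were 6 of 8 NK cell markers (list median 0.42). Also higher were 4 of 8 Ly-6Clo markers, Cd9 among them (0.16), and 3 of 5 endothelial markers (0.21). Each other marker list had at most 2. Flt3 lost its call in the fit of 6 arrays (0.123) and without any 1 wild type array, Ccl2-/- replicate 2 or Ccr2-/- replicate 1 (0.0643 to 0.164).

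**Figure D4:**
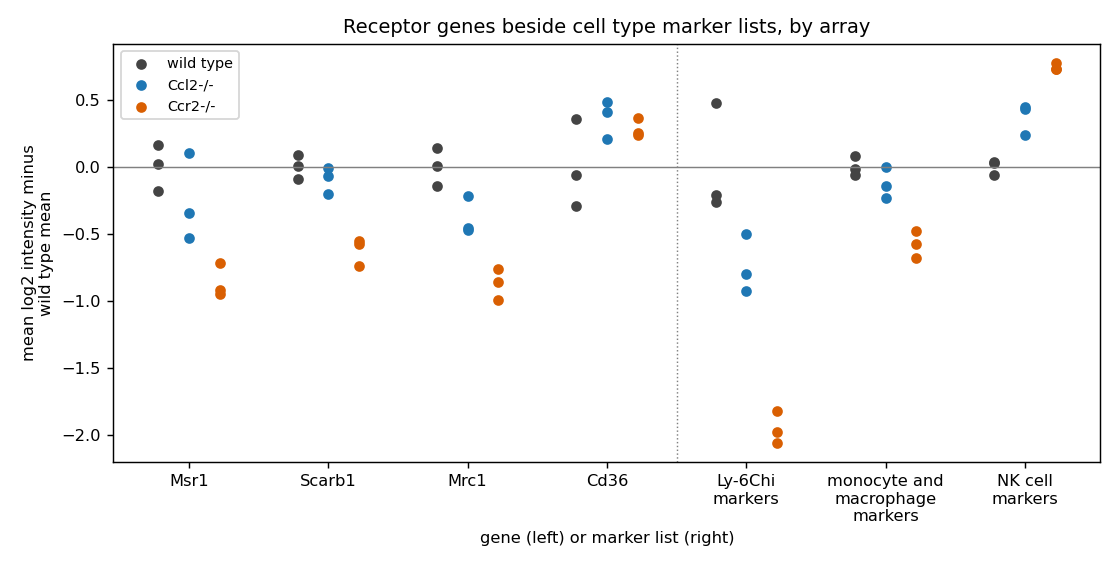
Log2 intensity on each of the 9 arrays minus the wild type mean (vertical axis), for 4 receptor genes and for the mean of 3 marker lists. Msr1, Scarb1 and Mrc1 lie lowest in the Ccr2-/- arrays, as do the Ly-6Chi and the general monocyte markers, while NK cell markers lie highest there and Cd36 lies at or above the wild type mean in both knockouts.

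Other scavenger receptors were lower in part. Of 16 measured, 6 fell and none rose in Ccr2-/- monocytes, with a median log2 change of -0.10 against 0.01 over all genes tested. For this list and those below, 8.38% of all genes fell and 4.91% rose in that comparison. The lists were chosen with earlier results of these data known. Clec7a, or dectin-1, the receptor for fungal beta-glucan, fell to 0.555-fold (limma adjusted p = 0.00126), Colec12, a collectin of the scavenger receptor type, to 0.702-fold (adjusted p = 0.00326) and Scarb2, or LIMP-2, the lysosomal relative of Cd36 and Scarb1, to 0.715-fold (adjusted p = 0.00248). Cd68, Cxcl16 and Lrp1 also fell (0.724- to 0.791-fold). Cd68 also belongs to the general monocyte and macrophage markers counted above. Within the class B family, then, Scarb1 and Scarb2 passed the test in Ccr2-/- monocytes and Cd36 did not, a contrast between genes that was not itself tested. None of the 16 passed in the Ccl2-/- comparison, where 2 reached an unadjusted p under 0.05.

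None of the relatives of Mrc1 was called lower. Of the 3 other genes of the mannose receptor family, Ly75, or DEC-205, rose in Ccr2-/- monocytes to 1.39-fold (limma adjusted p = 0.0136), while Mrc2, the collagen receptor Endo180, was at 1.07-fold (adjusted p = 0.802) and Pla2r1, the phospholipase A2 receptor, at 1.01-fold (adjusted p = 0.978). None of the 3 passed in Ccl2-/- monocytes, at an unadjusted p under 0.05 either. Mrc2 and Pla2r1 were dim, with mean wild type intensities of 302 and 196 against array medians of 324.1 to 355.1. How much of their signal is above background was not tested, so a fall may be hard to see for them.

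Part of the genes that handle what scavenger receptors bring in were lower. Of 12 measured genes of lipid handling 5 fell in Ccr2-/- monocytes and none rose, with a median log2 change of -0.27. The lysosomal cholesterol carriers Npc2 and Npc1 fell to 0.567-fold (limma adjusted p = 0.00053) and 0.683-fold (adjusted p = 0.00444), and Lipa, the lysosomal acid lipase that frees cholesterol from its esters, fell to 0.706-fold (adjusted p = 0.00491). Abcg1, which exports cholesterol, and the lipid droplet coat gene Plin2 were the others that fell (0.768- and 0.709-fold). Between the knockouts Npc2 was lower in Ccr2-/- monocytes (0.69-fold, adjusted p = 0.013). Ccl2-/- monocytes had no call among the 12, and 3 were under 0.05 before adjustment.

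Of 7 genes of haem handling, the pathway that Cd163 feeds, 4 fell in Ccr2-/- monocytes while Cd163 did not pass. Hp, which encodes haptoglobin, fell to 0.4-fold (limma adjusted p = 0.0011), the biliverdin reductase Blvrb to 0.702-fold (adjusted p = 0.00518), the haem oxygenase Hmox1 to 0.682-fold (adjusted p = 0.0374) and the haem transporter Slc48a1 to 0.857-fold (adjusted p = 0.0459). Of 6 genes of alternative macrophage activation, the state for which Mrc1 serves as a marker, 3 fell and none rose. The median log2 change of the 6 was -0.45. The 3 that fell were the galactose lectins Clec10a (0.254-fold, adjusted p = 0.00103) and Mgl2 (0.568-fold, adjusted p = 0.00107) and the chitinase-like Chil3 (0.288-fold, adjusted p = 0.0357). Clec10a and Mgl2 were dim in Ccr2-/- arrays, with mean intensities of 123 and 205. How much of that signal is above background was not tested. Retnla (1.29-fold, adjusted p = 0.494), Arg1 (1.11-fold, adjusted p = 0.695) and Il4ra (0.943-fold, adjusted p = 0.699) did not pass. For these 13 genes Ccl2-/- monocytes gave no call by limma, and 5 were under 0.05 before adjustment. Chil3 is also one of the Ly-6Chi markers counted above.

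The list of regulators held 10 measured genes, of which 5 fell in Ccr2-/- monocytes and none rose, with a median log2 change of -0.33. Spi1, which encodes PU.1, was at 0.812-fold (limma adjusted p = 0.031), Csf1r, the receptor for the growth factor of monocytes, at 0.776-fold (adjusted p = 0.00964), Irf4 at 0.321-fold (adjusted p = 0.0043), Klf4 at 0.719-fold (adjusted p = 0.0246) and Maf at 0.757-fold (adjusted p = 0.0498). Csf1r also belongs to the general monocyte and macrophage markers counted above. Pparg, a nuclear receptor known to induce Cd36, was at 0.987-fold (adjusted p = 0.974). In Ccl2-/- monocytes limma called none of the 10, of which 1 was under 0.05 before adjustment.

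Of 8 measured receptors and kinases that signal with scavenger receptors, 3 fell in Ccr2-/- monocytes and 2 rose. The toll-like receptors Tlr2 and Tlr6, which signal together with CD36, fell to 0.491-fold (limma adjusted p = 0.00112) and 0.608-fold (adjusted p = 0.000772), and the kinase Syk fell to 0.804-fold (adjusted p = 0.0135). Cd9, a tetraspanin that associates with CD36, rose to 1.68-fold (adjusted p = 0.000612) and the kinase Fyn to 1.34-fold (adjusted p = 0.00806). Cd9 is also one of the Ly-6Clo markers. In Ccl2-/- monocytes Cd9 rose to 1.45-fold (adjusted p = 0.0334, and 0.0369 without Ccl2-/- replicate 1). This call was lost with centring (0.224), in the fit of 6 arrays (0.269) and without any single array other than Ccl2-/- replicates 1 or 3 (0.0803 to 0.217).

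Of 8 genes for the uptake of apoptotic cells none passed in Ccr2-/- monocytes, and Axl alone was under 0.05 before adjustment. Axl, a receptor kinase that binds phosphatidylserine through Gas6, was at 0.563-fold (limma adjusted p = 0.0793), and Timd4 was at 1.06-fold (adjusted p = 0.569). Between the knockouts Axl was lower in Ccr2-/- monocytes (0.424-fold, adjusted p = 0.0426). The Ccl2-/- arrays for Axl ranged from 782 to 1707. Itgb3, the integrin subunit that pairs with CD36 in this uptake, rose to 1.98-fold in Ccl2-/- monocytes (adjusted p = 0.0141, and 0.0155 without Ccl2-/- replicate 1) and was at 0.88-fold in Ccr2-/- monocytes (adjusted p = 0.382), and it was lower in Ccr2-/- than in Ccl2-/- monocytes (0.445-fold, adjusted p = 0.00482). The rise in Ccl2-/- monocytes lost its call with centring (0.0654), in the fit of 6 arrays (0.108) and without wild type replicates 1 or 2 or Ccl2-/- replicate 2 (0.0959 to 0.125), while the difference between the knockouts passed under all 17 alternatives (0.000449 to 0.0443). Over the 8 lists together, 26 of 70 genes fell and 3 rose in Ccr2-/- monocytes, where 8.38% of all genes fell and 4.91% rose. In Ccl2-/- monocytes none of the 70 fell and 2 rose, where 0.16% of all genes were called in either direction. In Ccr2-/- against Ccl2-/- monocytes 13 were lower and none higher, where 2.87% of all genes were lower and 3.6% differed.

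**Figure D5:**
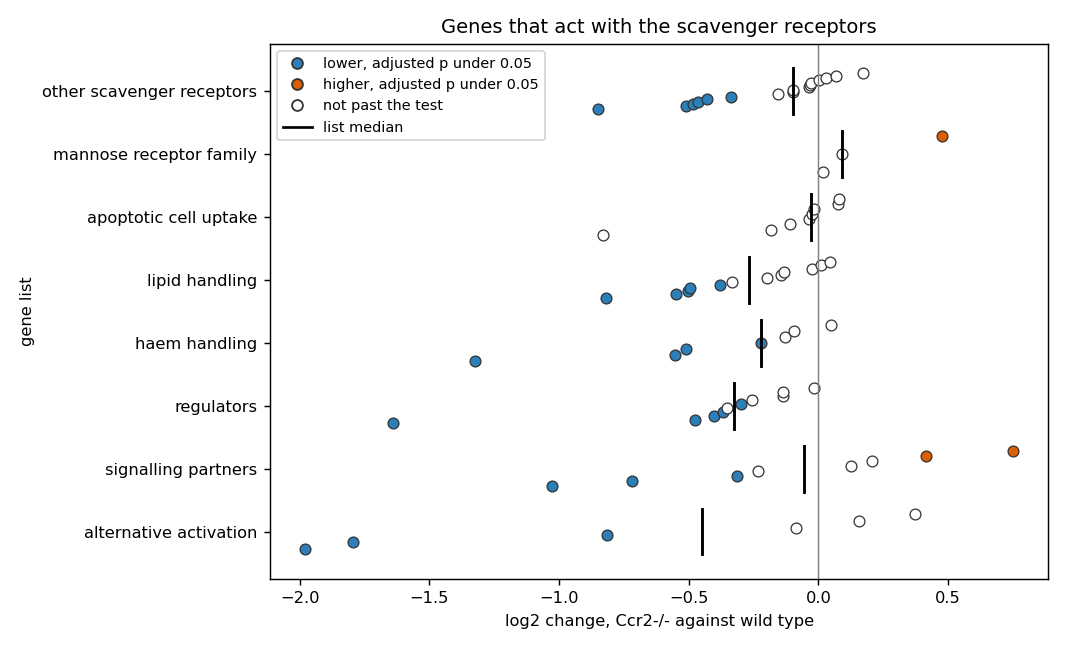
Log2 change of Ccr2-/- against wild type monocytes (horizontal axis) for the 70 measured genes of 8 lists, with 1 circle per gene, coloured where the adjusted p was under 0.05, and a bar at each list's median. Lower calls are present in 6 of the 8 lists, and the 3 higher calls are Ly75, Fyn and Cd9.

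Over the 9 arrays, the genes whose log2 intensities ran closest to each receptor were found by Pearson's r among 18295 genes with a mean log2 of at least 7. The values describe these arrays, which share genotypes and pools, and the highest of so many correlations is high by selection. For Scarb1 they were Cyp4f16 (r = 0.996) and Ssr3 (0.992), for Msr1 I830077J02Rik (0.991) and Tmem38b (0.99), and for Mrc1 Tcea1 (0.99) and Mettl21a (0.985). The closest to Marco were Hoxa10 (0.989) and 4921536K21Rik (0.988), which shared its high value in Ccl2-/- replicate 1, to Cd36 L1cam (0.966) and Cited4 (0.962), and to Cd163 Lztr1 (0.927) and Itpa (0.923). With each genotype's mean taken out, r between Msr1 and I830077J02Rik was 0.966 and between Scarb1 and Cyp4f16 0.976. The lowest among the named pairs was 0.853, between Cd163 and Lztr1. These values come from the arrays on which the pairs were selected, so they are high by the same selection.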

How the data were processed

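Blood monocyte RNA of 3 genotypes was hybridised to Affymetrix Mouse Gene 1.0 ST arrays. The authors used dChip to obtain the deposited linear intensity of each of 35512 transcript clusters on every array. Its version, normalization and expression model are not given in the sources used here. Clusters with 1 gene symbol (21789) were kept, and 999 genes with several clusters were read from the brightest. Values below 1 (19 in all) were set to 1 before log2. Genotypes were compared with limma 3.58.1 in R 4.3.3 on all 9 arrays, with calls at a Benjamini-Hochberg adjusted p under 0.05, checked on simulated data. The number of arrays limits the precision. The 6 members and the 8 pathway and 14 marker lists were chosen with earlier results of these data known, so lists are described by counts and medians. Members of lists without a cluster of 1 symbol were not used. From each pathway list the 3 genes with the smallest p in Ccr2-/- against wild type are named, and further genes were named after their values were seen. For each member the 2 genes with the highest correlation are named. Upstream sequences are those of RefSeq, with 4 of the 6 members matched.

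The alternatives were quantile normalization, centring, a filter on dim genes, an intensity trend, an offset of 50, averaging clusters by gene, fits of only the 6 arrays compared, a block for replicate number, leaving out single arrays, and the size limits of the methods.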

Additional observations from a re-analysis of the deposited data

How the results depend on the processing

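The falls of Msr1, Scarb1 and Mrc1 in Ccr2-/- against wild type monocytes kept their direction and their call under all 17 alternatives with a test, with log2 changes of -0.95 to -0.78, -0.67 to -0.56 and -0.94 to -0.74, and 3 or 4 of the 6 genes were called, the fourth being Cd36 without wild type replicate 3. Against Ccl2-/- monocytes, the 2 genes called became 1 with quantile normalization, 0 with centring, 0 in the fit of 6 arrays and 0 with the replicate block, and 0 to 3 when single arrays were left out. In Ccl2-/- against wild type monocytes no gene was called under any tested alternative, and 1 was past the size limits. Changes near 0 turned sign: Marco in Ccr2-/- against wild type (-0.015 and -0.012 without wild type replicate 1 and Ccr2-/- replicate 3, of a range of -0.015 to 0.144 over arrays left out), and against Ccl2-/- monocytes Cd163 (0.045 with quantile normalization, 0.089 with centring, 0.016 and 0.019 without Ccr2-/- replicate 2 and Ccl2-/- replicate 1, of a range of -0.071 to 0.019) and Cd36 (0.028 with centring). None of these was called.

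Of the 70 pathway genes, the 2 called in Ccl2-/- monocytes were 0 with centring, 6 with an intensity trend and 0 with the replicate block. The 29 called in Ccr2-/- monocytes were 18 with centring. The 13 called between the knockouts were 6 with quantile normalization, 2 with centring, 24 with a trend and 4 with the block. The median log2 change of the 70 genes was 0.034 in Ccl2-/- monocytes (-0.005 with quantile normalization and -0.079 with centring), -0.141 in Ccr2-/- monocytes (-0.144 to -0.138) and -0.243 between the knockouts (-0.146 and -0.133). Over all genes, the share called in Ccl2-/- monocytes (0.16%) was 0.01% to 2.39%, in Ccr2-/- monocytes (13.3%) 8.26% to 17.4% and between the knockouts (3.6%) 0.0853% to 6.74%, beside 11.6%, 15.8% and 12.6% past the size limits. The cause of these moves was not tested. Of the 9 pairs of same-numbered replicates 4 had deviations that correlated above 0.1 (range -0.18 to 0.562), as had 4 of the 18 differently numbered pairs (-0.687 to 0.563). Since this did not hold for every same-numbered pair, the numbers were not taken to pair the pools. The block ended the calls of Mrc1 (adjusted p = 0.102) and Scarb1 (0.0575) between the knockouts and no other call of the 6 genes, and in Ccl2-/- monocytes those of Itgb3 (0.0943), Cd9 (0.156) and Flt3 (0.0943). The settings for these 3 list genes were tried after seeing the data.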
